A study of Drosophila melanogaster with 3 samples.

Results

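The T-box genes of Drosophila melanogaster examined here were Doc1, Doc2, Doc3, mid, H15, bi, org-1 and byn, 8 of the 13945 protein-coding genes on the chromosomes used. They were picked by name, and all 8 symbols were found in the Ensembl annotation. Jarid2 binding had been mapped by chromatin immunoprecipitation and sequencing (ChIP-seq) in whole embryos of both sexes, collected from 0 to 24 h of development. The flies were a transgenic line with a green fluorescent protein (GFP) fused to the C terminus of Jarid2, and an antibody to GFP was used for the pull-down. The series had 1 group of 3 biological replicates, all of this genotype and stage, and each collection mixed all embryonic tissues and many stages, so binding in 1 tissue cannot be told apart from binding in another. Embryos lacking the GFP tag were not analysed here, so no background of the antibody was available.

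Each replicate had a permissive list of 30000 peaks on build dm6, ranked here by the authors' signal value. A list of 5464 peaks selected with the irreproducible discovery rate (IDR) is called reproducible below. It consisted of the 5464 top-ranked peaks of the pooled replicates, so a peak in it need not occur in every replicate. The lists gave no read numbers, and the sequencing depth was unknown. A promoter peak of a gene is one with its summit no more than 1000 bp from one of the gene's annotated starts. With 1 group there was nothing to test between conditions, and the counts below are descriptions set beside the same counts over all protein-coding genes.

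T-box proteins are transcription factors that share a DNA-binding domain, the T-box, first known from mouse Brachyury. In the fly embryo they direct the formation of the amnioserosa, heart, visceral muscle, hindgut and nervous system, and each acts in a limited set of cells. Jarid2 associates with Polycomb repressive complex 2, which methylates histone H3 at a lysine residue and helps to keep developmental regulator genes silent outside the cells in which they act. In flies, Polycomb proteins are brought to DNA through sites for several sequence-specific factors, among them Pho, whose core site is GCCAT, and the GAGA factor, which binds GAGAG.

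Of the 8 genes, 6 had a reproducible promoter peak, beside 25.5% of all protein-coding genes. They were bi, mid, H15, org-1, Doc1 and Doc3, and Doc2 and byn had none. In equally long lists of the strongest peaks of each replicate, 7 T-box genes had a promoter peak in replicate 1, 7 in replicate 2 and 5 in replicate 3, with a mean of 6.33 ± 1.15 (SD, n = 3). The corresponding shares of all protein-coding genes were 27.2%, 24.5% and 26.5%. Somewhere in the whole list of each replicate, 7 of the 8 had a promoter summit, against 52.3%, 46.0% and 53.0% of all genes in replicates 1, 2 and 3. The gene lacking one in all 3 replicates was byn.

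The DNA at these promoters is shown first. For genes whose summit lay at or just after the start, and for the 2 genes with no reproducible promoter peak, the 200 bases before the start are printed. For org-1 and H15, whose summits lay farther upstream, 200 bases around the summit are printed. All are from RefSeq's copy of the Release 6 assembly (dm6), read on the strand of the gene, and contain no annotated exon. Capitals mark the letters GAGAG. They also mark the Pho core GCCAT. Both were searched on either strand, and the T-box site GGTGTGA, searched likewise, was found in none of the 8 windows. The windows are chrX:4426935-4427134 for bi, chr2L:5461439-5461638 for mid, chr2L:5403715-5403914 for H15, chrX:8455332-8455531 for org-1, chr3L:9041175-9041374 for Doc1, chr3L:9004996-9005195 for Doc3, chr3L:9019247-9019446 for Doc2 and chr3L:11927493-11927692 for byn.
bi: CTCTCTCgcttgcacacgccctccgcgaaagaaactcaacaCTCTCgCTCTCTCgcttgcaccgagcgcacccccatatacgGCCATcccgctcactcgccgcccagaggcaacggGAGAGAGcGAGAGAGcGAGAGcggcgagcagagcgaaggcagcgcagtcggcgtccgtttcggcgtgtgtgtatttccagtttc
mid: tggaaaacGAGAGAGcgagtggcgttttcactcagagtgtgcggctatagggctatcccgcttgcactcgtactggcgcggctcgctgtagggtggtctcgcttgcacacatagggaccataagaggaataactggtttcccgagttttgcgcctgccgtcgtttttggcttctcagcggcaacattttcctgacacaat
H15: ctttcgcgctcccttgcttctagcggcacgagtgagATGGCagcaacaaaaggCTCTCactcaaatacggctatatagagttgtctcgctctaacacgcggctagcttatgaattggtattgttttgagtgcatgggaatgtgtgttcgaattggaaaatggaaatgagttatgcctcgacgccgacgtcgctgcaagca
org-1: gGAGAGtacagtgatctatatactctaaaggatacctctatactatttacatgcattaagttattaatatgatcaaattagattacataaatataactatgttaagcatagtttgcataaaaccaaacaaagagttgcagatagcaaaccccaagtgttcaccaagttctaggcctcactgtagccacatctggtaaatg
Doc1: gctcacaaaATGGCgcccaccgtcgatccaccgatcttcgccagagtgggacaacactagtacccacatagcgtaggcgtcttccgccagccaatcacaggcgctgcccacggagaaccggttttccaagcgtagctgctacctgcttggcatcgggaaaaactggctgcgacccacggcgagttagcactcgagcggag
Doc3: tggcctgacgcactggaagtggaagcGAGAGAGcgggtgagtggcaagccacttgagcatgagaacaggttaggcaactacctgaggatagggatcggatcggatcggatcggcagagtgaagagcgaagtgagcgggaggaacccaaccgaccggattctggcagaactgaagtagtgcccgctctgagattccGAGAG
Doc2: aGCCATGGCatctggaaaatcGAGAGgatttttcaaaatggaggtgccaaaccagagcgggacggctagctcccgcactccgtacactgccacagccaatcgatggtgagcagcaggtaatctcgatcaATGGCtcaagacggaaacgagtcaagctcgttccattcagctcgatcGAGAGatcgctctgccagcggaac
byn: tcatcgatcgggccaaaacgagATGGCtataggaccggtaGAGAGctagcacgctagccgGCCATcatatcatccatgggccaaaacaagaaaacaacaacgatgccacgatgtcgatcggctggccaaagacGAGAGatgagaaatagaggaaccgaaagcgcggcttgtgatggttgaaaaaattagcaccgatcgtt

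With overlapping matches on both strands counted, GAGAG occurred 10 times before the bi start, 3 times before Doc3 and 2 times before mid. It also occurred 2 times each before Doc2 and byn, the genes with no reproducible promoter peak, and not in the 200 bases before Doc1. GCCAT occurred 3 times before Doc2, 2 times before byn and 1 time each before Doc1 and bi, and not before mid or Doc3. Among the 19253 windows of 200 bases before protein-coding starts, 25.3% held GAGAG and 29.7% held GCCAT. The letters searched were thus found before genes with and without a reproducible promoter peak, and a match is not evidence that a factor binds there. For bi, mid, Doc1 and Doc3 the windows end before the summits, which lay after the start. Doc2 had promoter summits at ranks 4748 and 3863 in replicates 1 and 2, and only byn had none in any replicate.

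In the reproducible list the strongest T-box promoter peak was at bi (bifid, also called optomotor-blind), which patterns the wing and the optic lobe under the control of the BMP ligand Dpp. Its summit lay 15 bp downstream of the third annotated start, in a 5' UTR (chrX:4426935-4427338), with a signal of 739 and rank 792 of 5464. In replicates 1, 2 and 3 the best bi promoter summit ranked 970, 605 and 751, so it was among the strongest 1000 peaks each time. It was the strongest T-box promoter summit in replicates 2 and 3, while in replicate 1 mid ranked above it, at 898. A weaker summit lay 80 bp downstream of the first start, at rank 4558 in the reproducible list and 3716, 4659 and 6364 in the replicates. By rank in the 3 replicates, the genes most like bi among 5128 with a promoter summit in every replicate list were sgg, which encodes the kinase GSK3, CG5004 and CG4080. Their Euclidean distances from bi in log2 rank were 0.164, 0.176 and 0.189.

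mid and H15 are neighbouring genes for related T-box factors, homologous to vertebrate Tbx20, that act in the heart, in ventral leg patterning and in the segmented ectoderm. The mid peak (chr2L:5461518-5461865) had rank 886 and a signal of 684, with its summit 34 bp downstream of the only start, in the 5' UTR. Its ranks of 898, 885 and 1032 in replicates 1, 2 and 3 were the closest together of any T-box gene. Replicate 2 also had a separate summit 217 bp upstream of the mid start, at rank 1040. The H15 peak (chr2L:5403590-5404039) had rank 1037 and a signal of 620, but its summit was in intergenic DNA 465 bp upstream of the first start. A further reproducible summit lay 265 bp upstream, at rank 3085, 200 bp from the stronger one. The best H15 ranks were 1048, 736 and 2098 in replicates 1, 2 and 3. The strongest H15 promoter summit of replicate 3, 396 bp upstream, matched both reproducible summits. Weaker replicate 3 summits lay 411 bp downstream of a start, at rank 9524, and 82 bp upstream, at rank 17096.

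org-1, the fly homologue of Tbx1, specifies founder cells of visceral muscle and of other muscles. Its promoter peak (chrX:8455302-8455537) had rank 1471 and a signal of 481, with ranks of 1999, 1322 and 1339 in replicates 1, 2 and 3. Like that of H15, the summit was intergenic and upstream, 363 bp before the nearer start. The replicate summits lay 361, 359 and 337 bp upstream, within 24 bp of each other. In the other 4 T-box genes with a promoter peak, the strongest summit was 15 to 52 bp downstream of a start. Over all 3556 genes with a promoter peak, the strongest summit was 0 to 100 bp downstream in 47.3% and more than 300 bp upstream in 16.8%.

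The Dorsocross genes Doc1, Doc2 and Doc3 form a cluster on chromosome 3L and act together in the amnioserosa and the dorsal mesoderm, where the heart forms. Doc1 had the strongest peak of the cluster (chr3L:9041318-9041491), at rank 1486 with a signal of 479, 52 bp downstream of its first start. The Doc1 ranks were 1340, 1299 and 2041 in replicates 1, 2 and 3. This summit also lay 498 bp upstream of the start of the non-coding gene lncRNA:CR46451, which points away from Doc1. Doc3 followed at rank 3063 with a signal of 272, 29 bp downstream of its start (chr3L:9005000-9005449), and ranked 3726, 2999 and 5661 in the replicates. Doc2 had no reproducible promoter peak, but it fell short by a small margin. The pooled list had a summit 149 bp upstream of the Doc2 start at rank 5651, with a signal of 163, where the weakest reproducible peak had a signal of 168. In replicates 1 and 2 the Doc2 summit ranked 4748 and 3863, 158 and 157 bp upstream, and in replicate 3 the best one ranked 16000 and lay 392 bp downstream. Thus the order within the cluster was Doc1, Doc3 and Doc2 in every replicate, while Doc3 and Doc2 dropped below rank 5464 in replicate 3.

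byn (brachyenteron), the fly Brachyury gene, is required for the hindgut and was the exception in the family. No replicate had a summit within 1000 bp of its start, and the pooled list had 1 at rank 26726, 306 bp upstream. No reproducible summit lay in the byn span or within 10 kb of it. The best rank in that interval was 6267 in replicate 1 and 14726 in replicate 3, both 11.2 kb downstream of the byn start, and 6494 in replicate 2, 9.28 kb upstream. All 3 lay outside the byn gene, those downstream in a 5' UTR and that upstream in an intron of other genes. The pooled list had 8 summits in the interval, or 2.83 per 10 kb, beside 2.24 per 10 kb over the chromosomes used. This was the lowest pooled density of the T-box loci, the others lying between 4.38 per 10 kb at org-1 and 9.63 at mid.

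**Figure D1:**
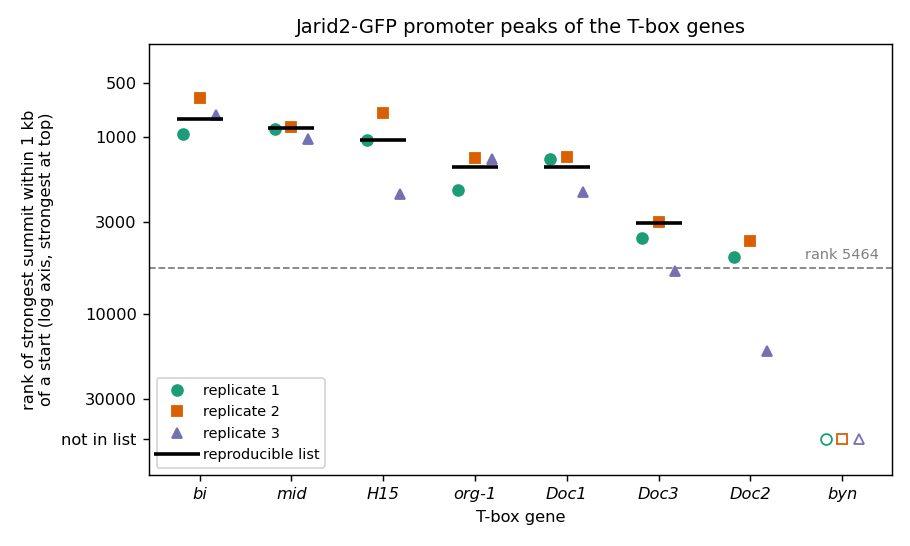
Rank of the strongest summit within 1 kb of a start for each T-box gene, on a log axis with the strongest at the top. Symbols are the 3 replicates, horizontal bars the reproducible list, the dashed line rank 5464, and open symbols mark no summit in the list. All 3 replicates lie above the line for bi, mid, H15, org-1 and Doc1, replicate 3 lies below it for Doc3 and Doc2, and byn has no summit.

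The replicates differed in a regular way at these genes. Among the 7 T-box genes with a promoter summit in every replicate list, the best rank was that of replicate 2 in 7 and the poorest that of replicate 3 in 5. Replicate 1 gave the poorest rank for bi and org-1. Over 3434 genes with a reproducible promoter peak and a promoter summit in every replicate list, 36.1% had their best rank in replicate 2 and 44.1% their poorest in replicate 3. The 2 sets differ by Doc2, which is among the 7 but has no reproducible promoter peak. Its best rank was 3863, in replicate 2, and its poorest 16000, in replicate 3. Whether depth contributed was not tested, since the lists hold no read numbers.

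Genes with more start sites have more chances of a summit nearby. Among protein-coding genes with 1 start, 18.5% had a reproducible promoter peak, and of the 4 T-box genes of this kind mid and Doc3 had one while Doc2 and byn did not. Among those with 2 starts the share was 38.0%, and H15, org-1 and Doc1 all had a peak. Among those with 3 starts it was 55.4%, and bi had a peak. Within the 3556 genes with a promoter peak, the T-box genes were not at the top of the range. A stronger promoter peak was found at 23.5% of these genes for bi, 26.1% for mid, 30.0% for H15, 40.2% for org-1, 40.4% for Doc1 and 70.0% for Doc3.

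**Figure D2:**
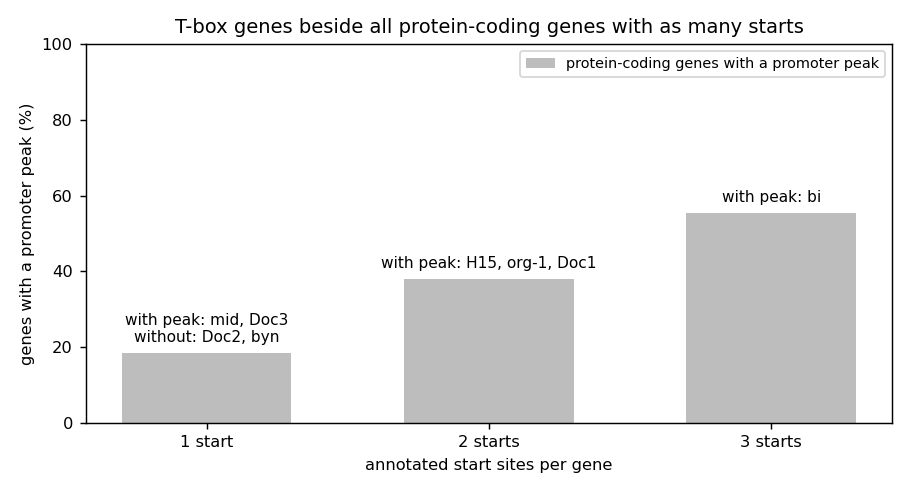
Share of protein-coding genes with a reproducible promoter peak (bars, in percent) by number of annotated start sites, with the T-box genes of each class named above the bar. The shares are 18.5%, 38.0% and 55.4% for 1, 2 and 3 starts, and both T-box genes with no promoter peak have 1 start.

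The surroundings of the genes were examined as the gene span plus 10 kb on each side. Of the 8 T-box genes, 7 had a reproducible summit in this interval, beside 62.5% of all protein-coding genes. Since the intervals of Doc3 and Doc2 overlap, the 8 genes formed 7 loci of 264 kb in all. These held 26 reproducible summits, 0.983 per 10 kb, beside 0.408 per 10 kb over the 6 chromosomes used. The chromosome value also covers DNA far from genes, so these densities are not matched. Per gene span plus 10 kb, the median over all protein-coding genes was 1 summit. Fewer summits than at the T-box gene were found at 99.6% of genes for bi and 89.7% for Doc1 and Doc2. The share was 79.7% for Doc3, mid and H15, 62.6% for org-1 and 0% for byn. In these counts per gene a summit was counted for every gene whose interval held it. The Doc3 promoter peak thus also counts for Doc2, and a summit at the start of Argk1 counts for Doc1. With a flank of 5 kb the loci held 17 summits. They held 16 when only summits held by both replicates 1 and 3 were counted. In the 5464 strongest peaks of replicates 1, 2 and 3 the loci held 24, 31 and 17 summits, a mean of 24 ± 7 (SD, n = 3). Of the 26 summits, 8 lay within 1000 bp of a T-box start, 3 within 1000 bp of the start of another gene alone and 15 away from any start. Thus 57.7% of the summits were away from starts, beside 27.1% of all reproducible summits. Many were weak: the median rank was 3584 of 5464, and 9 of the 26 were among the strongest 2732.

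The replicates held most of these summits. A summit counted as held when one of a replicate's 5464 strongest peaks had its summit within 200 bp. Of the 26, 15 were held by all 3 replicates (57.7%), 8 by 2 and 3 by 1, beside 68.2% of all reproducible summits held by all 3. Of the 8 reproducible summits at T-box promoters, 6 were held by all 3. The other two, at Doc3 and at the first start of bi, were held by replicates 1 and 2. At H15, downstream of mid and in the bi intron, a pair of neighbouring summits matched the same summit of a replicate, in replicate 3 at the first 2 places and in replicate 1 at bi.

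The bi locus had 9 reproducible summits, and 99.6% of protein-coding genes had fewer in their span plus 10 kb, though the bi gene is also long, at 72792 bp. Per length it was not the densest T-box locus, with 0.970 summits per 10 kb beside 1.69 at Doc1 and 1.47 at Doc3 and Doc2. The first 8 of the 9 summits fell within 15.6 kb, from 1264 bp upstream of the first start to the third start, and the ninth lay 19.1 kb farther into the gene. The summit 1264 bp upstream had rank 1395 and was held by all 3 replicates, at ranks 1542, 863 and 3780. Another, 1997 bp upstream of the third start, had rank 1977 and replicate ranks of 2357, 1361 and 3706. A weaker neighbour of that summit, of rank 4781, had no match in replicate 3. Between these and the summit 80 bp after the first start, 3 more lay in the intron at ranks 4246, 4673 and 4013. The summit of rank 4673 was held by replicate 2 alone, and ranked 5469 in replicate 1 and 14079 in replicate 3. The isolated ninth summit, 19112 bp downstream of the third start, was weak at rank 4783 but held by all 3, at ranks 5414, 4785 and 4838. The summits in bi introns also lay in an intron of the non-coding gene lncRNA:CR32773. The summit 1264 bp upstream of the first bi start lay in an intron of that gene alone.

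The Doc cluster spans 39.8 kb from the start of Doc3 to the end of Doc1 and held 6 reproducible summits. Besides the promoter peaks of Doc1 and Doc3 there was 1 between Doc3 and Doc2 and 3 in the interval between Doc2 and Doc1. The strongest of those 3 had rank 2806 and lay 6587 bp upstream of Doc2, with replicate ranks of 3599, 3300 and 2344. In all 3 replicates this summit ranked above every promoter summit of Doc2. The next, 6839 bp upstream of Doc1, had rank 4283 and replicate ranks of 5133, 4201 and 3559, and the third, of rank 5255, was held by replicate 2 alone. The summit between Doc3 and Doc2 had rank 5174 and replicate ranks of 4535, 5013 and 6035. Its nearest start, 2147 bp away, was that of CG5194, another protein-coding gene within the cluster. Just beyond the end of Doc1 lay another summit, of rank 4422, with replicate ranks of 5815, 4784 and 3376. The start nearest to it, 2010 bp away, was that of Argk2. From Doc3 to Doc1 the 5464 strongest peaks included 7, 8 and 3 summits in replicates 1, 2 and 3.

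The H15 and mid pair had few reproducible summits between the genes. From the left end of H15 to the right end of mid, a span of 63.3 kb, there were 2 reproducible summits, since the H15 promoter summits lay upstream of the gene. The 5464 strongest peaks of replicates 1, 2 and 3 included 3, 5 and 2 summits in this span, so in replicate 3 it held about as few as the shorter Doc cluster. Of the 2 reproducible summits, 1 was the mid promoter peak. The other was a weak summit of rank 5224 in the interval between the genes, held by replicate 2 alone. A further site lay 15212 bp downstream of the mid start, beyond the gene, at rank 2266, with replicate ranks of 2131, 2806 and 1918. A neighbouring summit of rank 4380 lay 15413 bp downstream, and the replicate 3 summit of rank 1918 matched both. At org-1 the second summit of the locus was 9506 bp upstream and lay at another gene.

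**Figure D3:**
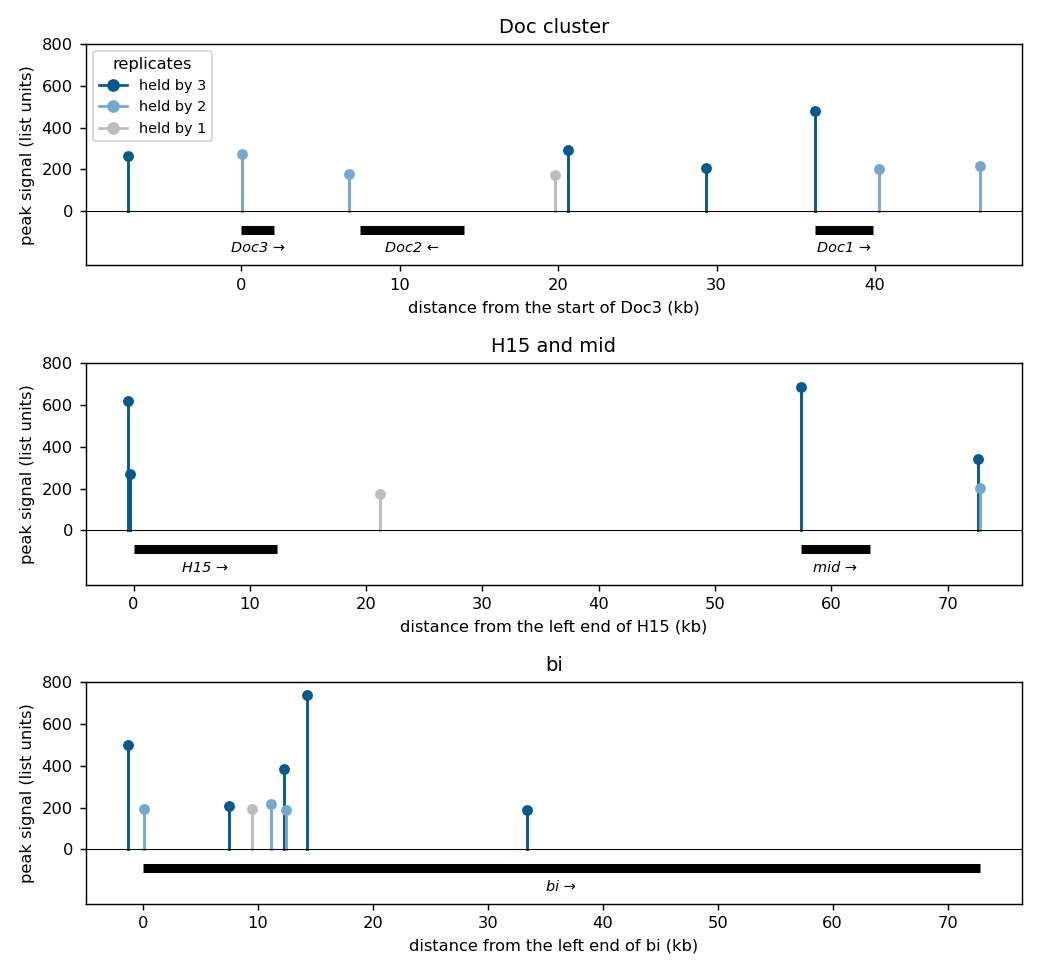
Reproducible summits at the Doc cluster, the H15 and mid pair and bi, by distance along the chromosome in kb, with height giving the authors' signal in the units of the list and colour the number of replicates holding the summit. Black bars are genes with their direction. The 3 tallest are at the promoters of bi (739), mid (684) and H15 (620), and 8 of the 9 bi summits crowd into 15.6 kb at the left.

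**Figure D4:**
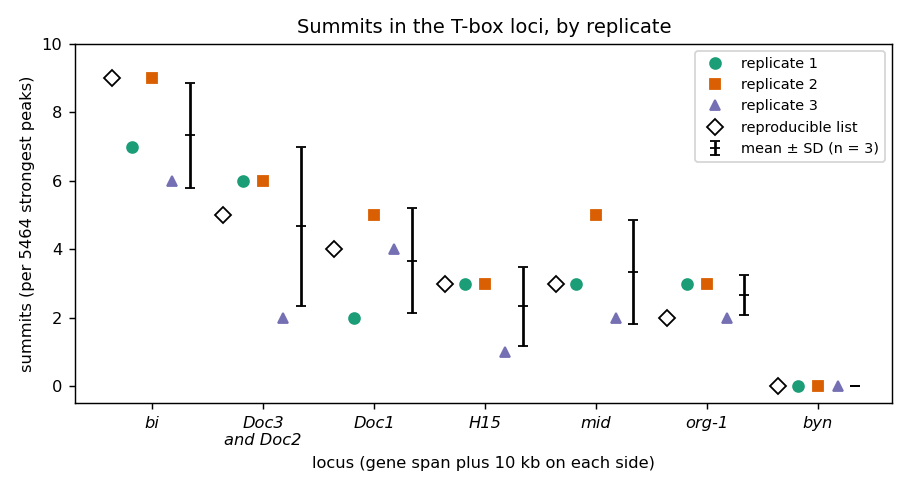
Summits per locus among the 5464 strongest peaks of each replicate (coloured symbols), with their mean and SD (n = 3), and in the reproducible list (open diamonds). Counts are 7, 9 and 6 at bi and 6, 6 and 2 at Doc3 and Doc2 in replicates 1, 2 and 3, and 0 in every list at byn.

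In 300 bp windows at the 26 locus summits, GAGAG was found in 16 (61.5%), beside 47.4% of all reproducible summits and 33.5% of windows centred on protein-coding starts. GCCAT was found in 13 (50%), beside 38.7% of all reproducible summits and 42.6% of start windows. GTGTGT was present in 9 (34.6%) and GAAAA in 21 (80.8%), beside 30.2% and 82.4% of all reproducible summits and 19.8% and 81.4% of start windows. All motifs were searched on both strands, and some windows overlap, as at H15. The short sequence GGTGTGA, a site for T-box proteins, was in 4 windows (15.4%), beside 2.98% of all reproducible summits and 2.65% of start windows. Those 4 windows held 3 sites, 1 upstream of H15 and 2 in the bi intron, so the count rests on 2 loci. In windows of 200 bp the number was 2 of 26 (7.69%), beside 1.89% of all reproducible summits. The sites are shown with 27 bases on each side, on the strand that reads GGTGTGA (capitals). They are chr2L:5403922-5403982 at H15 on the minus strand, chrX:4420312-4420372 at bi on the plus strand and chrX:4424968-4425028 at bi on the minus strand.
H15: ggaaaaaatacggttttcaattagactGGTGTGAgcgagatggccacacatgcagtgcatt
bi: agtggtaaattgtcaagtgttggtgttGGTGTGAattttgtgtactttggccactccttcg
bi: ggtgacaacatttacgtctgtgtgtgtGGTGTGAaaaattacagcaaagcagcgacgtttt

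The first bi site lay 7 bp from the summit of rank 4246. The other bi site was 140 bp from the summit of rank 1977, and the H15 site 137 bp from that of rank 1037 and 63 bp from that of rank 3085.

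Genes that work with the T-box factors in the same tissues were grouped in 5 lists. Counted once each, 37 of 45 had a reproducible promoter peak, beside 25.5% of all protein-coding genes, and in replicates 1, 2 and 3 the number was 34, 37 and 35. The share over all genes is not matched by number of starts, which ranged in the lists from 1, as at tin, to 7 at sd. The lists were also chosen with earlier results of these data known. In the wing and optic lobe list, which holds targets and partners of Dpp and Wingless signalling, 10 of 10 had a peak. The strongest were at Dll, the distal limb homeobox gene (rank 115), dpp (rank 459) and wg (rank 479), all ranked above bi. In the dorsal ectoderm and amnioserosa list 8 of 9 had a peak, led by the GATA cofactor gene ush (rank 141), Kr (rank 219) and peb (rank 356), and zen had none. These too ranked above Doc1 and Doc3.

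Among the cardiac and dorsal mesoderm genes, 9 of 10 had a peak, with svp (rank 688), Mef2 (rank 1166) and tin (rank 1773) in front and Him without. The nuclear receptor gene svp thus ranked above mid and H15, and the heart homeobox gene tin below both. Of the muscle, segment and neuroblast genes 7 of 10 had a peak, with the Hedgehog receptor gene ptc (rank 374), the adhesion gene Fas2 (rank 467) and ap (rank 768) in front. Alk, whose receptor signals in the visceral muscle founder cells in which org-1 acts, and the visceral mesoderm gene bin had none. The hindgut and tail list, to which byn is closest in function, had peaks at 6 of 9. The forkhead gene fkh (rank 474), bowl (rank 850) and otp (rank 851) had the strongest, while hkb and lin had none. Nor did tll, which is named after its value was seen and is, like hkb, a terminal gap gene that acts upstream of byn. In contrast, cad of the same list, also named after its value was seen, had a peak at rank 2146. Within single replicates, lin had a promoter summit at rank 4105 in replicate 3, and the best rank of hkb was 5711, in replicate 2.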

How the data were processed

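ChIP-seq peak lists of 3 replicates of 1 group were used in build dm6. The deposited signal is the value that the authors' peak caller gave each peak, on a separate scale in each list. Per the deposited file notes, a permissive list was derived from the alignments of each replicate, or of all pooled, with a control alignment, and the IDR list from these lists. The aligner and peak caller are not given in the sources used here. Fragments were 200 to 800 bp long, per the labels. Ranks within a list were compared, not levels between lists. The dm3 lists were not used.

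Genes and starts were from Ensembl release 115 (BDGP6.54), without transposon insertions, on 6 chromosomes (2L, 2R, 3L, 3R, 4 and X). Matching of summits used 200 bp. Analyses ran in Python 3.11.15 with numpy 2.4.6 and pandas 2.3.3, after the scripts were tested on simulated data. The genes, lists and rules were chosen with earlier results of these data known. Of the other genes, the rule named the 3 with the strongest promoter peaks and the first 2 by name without one in each list, all genes with a start within 1000 bp of a locus summit, and the 3 most like the strongest T-box gene. hnt was matched under its current symbol, peb. Protein sequences were not analysed here.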

Additional observations from a re-analysis of the deposited data

How the results depend on the processing

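The number of T-box genes with a promoter peak was 5 to 7 of 8 under the 11 other settings tried, and 5 to 6 when a replicate was left out and a peak had to be held by each of the remaining replicates. Among the strongest 2732 reproducible peaks, 16.4% of all protein-coding genes had a promoter peak, beside 5 of the 8 T-box genes. With no flank, 4 T-box genes had a reproducible summit and the loci held 11 summits, since several promoter and upstream summits lie outside the gene span, and with a flank of 5 kb they held 17. The loci held 9 summits among the strongest 2732 peaks and 17 among the strongest peaks of replicate 3 alone. Leaving out 1 replicate and counting only summits held by both others gave 16 to 19 summits, with the lowest number without replicate 2. The reported 26 did not have to be held, and 15 of them were held by all 3 replicates, so this setting differs from the reported one by the demand to be held as well as by the replicate left out. The other values for all results that answer a comparison stayed within 1.5 times the reported ones. The number of windows with GTGTGT was 15 at 500 bp, beside 9 at 300 bp. No paired analysis was possible because the series has 1 group. Depth was unknown, so it could not be said how many weak sites were missed.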

Other observations

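Other genes also had peaks within the T-box loci. A summit of rank 3154 lay between smg, which encodes an RNA-binding repressor of maternal mRNAs, and CG5087, 67 bp and 128 bp upstream of their starts, and all 3 replicates held it, at ranks 3189, 2733 and 2212. In each replicate it ranked above the Doc3 promoter summit, but in the reproducible list it ranked below it (3154 beside 3063 for Doc3). At the far end of the Doc cluster, a summit of rank 4034 lay 95 bp downstream of a start of the arginine kinase gene Argk1, with ranks of 10269, 3777 and 4707 in replicates 1, 2 and 3. The second summit of the org-1 locus, of rank 2634, lay 137 bp upstream of Sptr, which encodes an enzyme of pteridine synthesis, and ranked 2691, 2460 and 3249.

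Some windows within the bi intron were rich in simple repeats. The 300 bp window at the summit of rank 4673 held 27 overlapping matches of GTGTGT, and that at the summit of rank 4013 held 11 of GAGAG. Their replicate ranks were 5469, 3440 and 14079 for the GTGTGT window and 6651, 3760 and 2740 for the GAGAG window. The part of sequence repeats in the differences between replicates was not tested.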
